A study of Mus musculus with 6 samples.

Results

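The interleukin 1 family genes examined here were Il1a, Il1b, Il18 and Il33, which encode ligands, Il1rn and Il18bp, which encode soluble inhibitors, and Il1r1, Il1rap, Il1rl1 and Il1r2, which encode receptor chains. They were chosen by name as 10 genes. Of these, 9 had a row annotated with their symbol alone in the deposited table, out of 22180 such genes. No row carried the symbol Il1rl1, the receptor for interleukin 33, so that gene was not analysed here. For Il1rap, which had 3 rows, the row with the highest mean signal over all arrays was used. The RNA came from a mouse acute myeloid leukaemia cell line labelled URE-/- for the loss of the upstream regulatory element, which enhances Spi1, and PU.1low for its low level of PU.1, the transcription factor that Spi1 encodes. The line derives from a URE-/- mouse at the leukaemic stage, and both groups carry this deletion. The 3 vehicle arrays came from cells given water and the 3 DB2313 arrays from cells given DB2313 at 330 nM, which the labels call a PU.1 inhibitor, each for 24 h. All cells grew in a medium with serum and the supernatants of WEHI and BHK cells. The labels call the arrays biological replicates without saying whether separate cultures were started, and the p-values then reflect only the spread among these arrays, which may be technical.

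Interleukin 1 alpha and beta both signal by binding the receptor chain encoded by Il1r1, which then recruits the accessory chain encoded by Il1rap. The receptor antagonist encoded by Il1rn occupies Il1r1 without recruiting the accessory chain, and the receptor encoded by Il1r2 is a decoy that binds ligand without signalling. Myeloid cells are a main source of interleukin 1 beta and of the antagonist, and the assembled receptor signals through MyD88 and the IRAK kinases to NF-kB.

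The members that differed between the groups were Il1rn and Il1r1, and their promoter windows are therefore shown. RefSeq windows of 300 bases, from 250 bases before to 50 bases after an annotated start, were found for all 10 genes in the build GRCm38.p6. PU.1 belongs to the ETS factors, which bind DNA around a GGAA core, and capitals mark GGAA on either strand, where the reverse strand reads TTCC. Il1rn lies on the plus strand of chromosome 2, with windows at chr2:24336610-24336909 and chr2:24345121-24345420. A further Il1rn window overlaps the latter and is not shown. Il1r1 lies on the plus strand of chromosome 1, with windows at chr1:40224830-40225129 and chr1:40266336-40266635.
Il1rn upstream start: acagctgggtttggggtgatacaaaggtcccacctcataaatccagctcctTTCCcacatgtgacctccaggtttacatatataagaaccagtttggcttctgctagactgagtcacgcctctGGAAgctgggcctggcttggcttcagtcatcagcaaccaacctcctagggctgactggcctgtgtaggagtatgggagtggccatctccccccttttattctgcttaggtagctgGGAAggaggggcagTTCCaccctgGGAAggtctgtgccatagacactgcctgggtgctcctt
Il1rn downstream start: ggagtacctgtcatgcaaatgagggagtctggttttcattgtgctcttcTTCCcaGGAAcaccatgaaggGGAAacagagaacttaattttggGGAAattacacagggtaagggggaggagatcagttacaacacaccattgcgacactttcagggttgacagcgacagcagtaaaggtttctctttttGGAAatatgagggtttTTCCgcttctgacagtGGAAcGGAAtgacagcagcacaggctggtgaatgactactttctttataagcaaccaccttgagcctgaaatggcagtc
Il1r1 upstream start: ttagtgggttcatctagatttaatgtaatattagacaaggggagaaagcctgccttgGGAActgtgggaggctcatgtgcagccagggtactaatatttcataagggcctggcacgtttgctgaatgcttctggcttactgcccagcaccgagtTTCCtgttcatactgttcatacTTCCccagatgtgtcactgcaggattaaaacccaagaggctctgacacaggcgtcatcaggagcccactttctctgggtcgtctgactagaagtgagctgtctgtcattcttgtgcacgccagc
Il1r1 downstream start: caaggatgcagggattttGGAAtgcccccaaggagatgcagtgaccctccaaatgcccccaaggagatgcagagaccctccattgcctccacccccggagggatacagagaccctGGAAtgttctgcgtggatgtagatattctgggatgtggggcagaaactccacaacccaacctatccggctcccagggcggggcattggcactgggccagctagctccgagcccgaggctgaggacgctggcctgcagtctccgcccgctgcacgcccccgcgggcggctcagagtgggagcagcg

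GGAA occurred 5 times in the upstream and 8 times in the downstream Il1rn window, and 3 times in the upstream and 2 times in the downstream Il1r1 window. Of 32851 mouse windows of this length, 96% held the core at least once, with a median of 3 matches. The longer PU.1-type word GAGGAA, searched on both strands and containing the GGAA core, was in none of the Il1rn and Il1r1 windows. Over the 10 genes it was present in 3 of 15 windows (20%), of Il1a, Il1rl1 and Il33, against 28.3% of all windows. GAGGAAGT was in no window of the 10 genes, against 3.2% of all windows. These matches describe the letters of the windows, and which start the cells used was not measured.

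The median signal of the 6 arrays lay between 4.77 and 4.82 on the log2 scale. Pearson's r over genes was 0.996 for each pair of arrays within a group and 0.994 to 0.995 for pairs across groups. Of the markers of immature myeloid cells, Elane, Prtn3, Ctsg, Mpo and Kit lay above the median signal of all genes, 5.17. The rows of Ptprc (vehicle mean 3.32) and Cd34 (4.59) lay below it. All 9 measured lymphoid and NK cell markers also lay below it, as did 9 of 11 mast cell and basophil markers. None of the immature myeloid, mast cell and basophil, or lymphoid and NK cell markers passed in limma. An unadjusted p under 0.05 was found for 2 (20%), 1 (9.09%) and 0 of them, against 12.7% of all genes. The smallest p in these lists were those of Mpo (log2 fold change 0.29) and Spn (0.15), of Mcpt8 (0.28) and Gata2 (-0.16), and of Ncr1 (-0.16) and Klrb1c (-0.25). Spi1 fell by 0.37 on the log2 scale with DB2313 (limma adjusted p = 0.0342), a call not kept with any array removed (limma adjusted p from 0.0648 to 0.134).

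The comparison asked whether the ligands, inhibitors and receptors of the family differed between cells with and without the PU.1 inhibitor. With DB2313, Il1rn fell by 0.41 and Il1r1 rose by 0.44 on the log2 scale. None of the 4 ligands, and neither Il18bp, Il1rap nor Il1r2, passed the test. The threshold was an adjusted p of 0.05 in limma, adjusted over all 22180 genes, of which 1.81% passed it in either direction, 1.02% higher and 0.789% lower. Of the 9 measured members, 1 was higher and 1 lower. The median log2 fold change of the 9 members was -0.10, against -0.0024 over all genes tested, and 6 of the 9 were below 0, as were 50.9% of all genes.

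**Figure D1:**
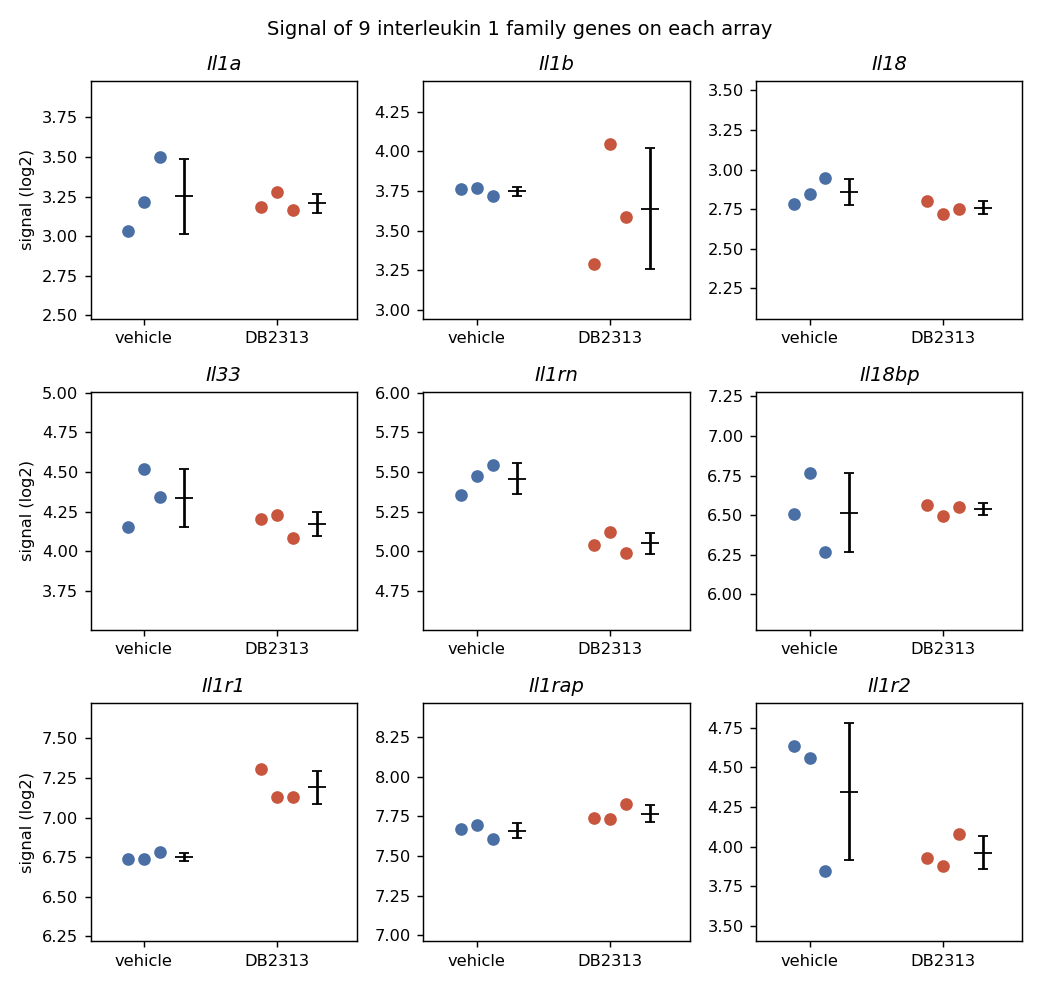
Signal (log2, vertical axis, the same span in every panel) of the 9 measured family genes on the 3 vehicle (blue) and 3 DB2313 (red) arrays; each point is an array, and black bars are the mean and SD of a group (n = 3). The groups stand clear of each other for Il1rn and Il1r1, narrowly for Il1rap, and overlap for the other 6 genes.

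Il1rn, which encodes the receptor antagonist, had signals of 5.35, 5.47 and 5.55 on the vehicle arrays and 5.04, 5.12 and 4.99 on the DB2313 arrays (log2). Every DB2313 array lay below every vehicle array, with a gap of 0.23 between the nearest pair. The mean went from 5.46 ± 0.10 to 5.05 ± 0.07 (log2, SD, n = 3), which is 1.33-fold lower. This gave a log2 fold change of -0.41 (SE 0.074, 95% confidence interval -0.58 to -0.24, limma adjusted p = 0.0414). After 32 was added to the linear signals, an offset which damps dim genes, the log2 fold change was -0.22 and still passed (limma adjusted p = 0.0241). That setting called 830 genes in all, against 401 in the main test. Il1rn has alternative first exons that give secreted and intracellular forms, which this row does not separate.

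Il1r1, the chain that binds interleukin 1 and signals, had signals of 6.74, 6.74 and 6.78 on the vehicle arrays and 7.31, 7.13 and 7.13 on the DB2313 arrays (log2). Here every DB2313 array lay above every vehicle array, with a gap of 0.35. The mean went from 6.75 ± 0.02 to 7.19 ± 0.10 (log2, SD, n = 3), which is 1.35-fold higher. This gave a log2 fold change of 0.44 (SE 0.070, 95% confidence interval 0.27 to 0.60, limma adjusted p = 0.0266).

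The calls for both genes rested on all 6 arrays. With each array removed in turn, the log2 fold change of Il1rn ranged from -0.46 to -0.36 and that of Il1r1 from 0.38 to 0.47. Neither gene passed in any of these 6 settings, with limma adjusted p between 0.0676 and 0.164 for Il1rn and between 0.0753 and 0.105 for Il1r1. The plot with each array left out shows that the size of both differences moved little while the adjusted p crossed the threshold.

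**Figure D2:**
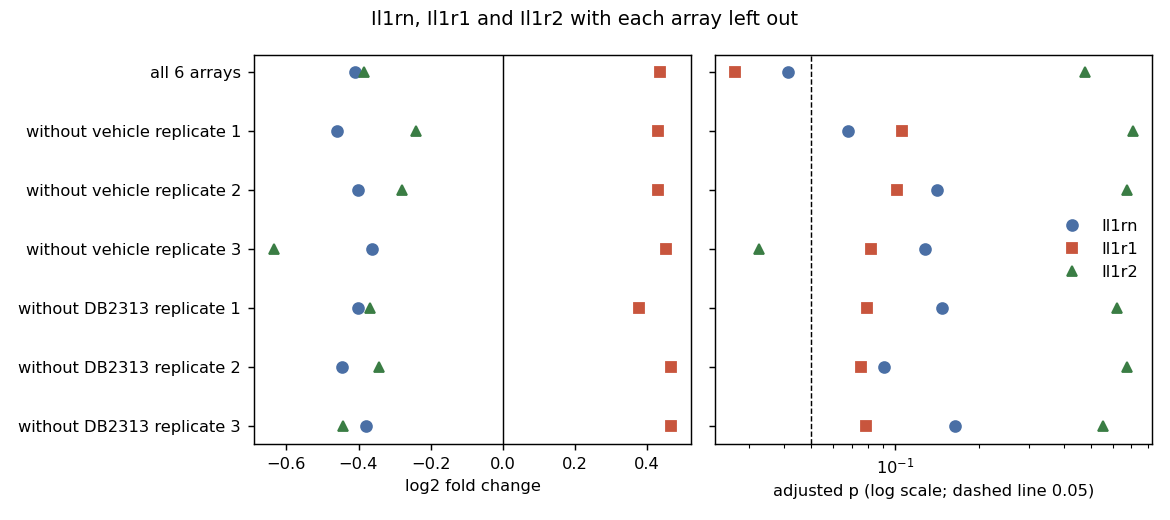
Log2 fold change (left) and limma adjusted p on a log axis (right; dashed line at 0.05) of Il1rn, Il1r1 and Il1r2 with all 6 arrays and with each array left out. Il1rn stays between -0.46 and -0.36 and Il1r1 between 0.38 and 0.47, and Il1r2 crosses the line only without vehicle replicate 3, where it reaches -0.64.

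The antagonist was then set against its receptor within each array, as the log2 value of Il1rn minus that of Il1r1. This compares how the 2 genes changed and not their levels, since signals of different probe sets are not on a common scale. The difference was -1.39, -1.26 and -1.23 on the vehicle arrays and -2.27, -2.01 and -2.14 on the DB2313 arrays. All 3 DB2313 arrays were lower than all 3 vehicle arrays. The mean went from -1.29 ± 0.08 to -2.14 ± 0.13 (log2, SD, n = 3). The change was -0.85, so that Il1rn signal relative to Il1r1 signal was 1.80-fold lower with DB2313. A 2-sided exact permutation test over the 6 arrays gave p = 0.1, the smallest that 3 arrays against 3 allow. The groups of both genes were already apart in opposite directions, so this p was fixed by them and adds no support. With each array removed in turn the change ranged from -0.91 to -0.78, and it was -0.57 with the offset of 32. As both genes were named in the choice of the comparison, these values describe the pair.

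**Figure D3:**
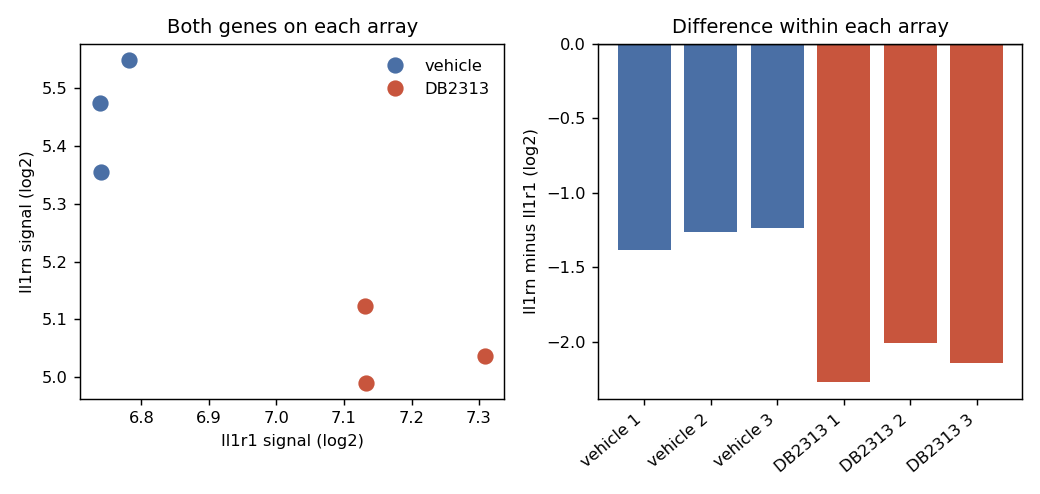
Left, signal of Il1rn against that of Il1r1 (both log2), 1 point per array, vehicle in blue and DB2313 in red; right, Il1rn minus Il1r1 (log2) on each array. The vehicle bars lie between -1.39 and -1.23 and the DB2313 bars between -2.27 and -2.01.

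The decoy receptor gene Il1r2 had a mean difference of similar size to Il1rn but did not pass. Its signals were 4.63, 4.56 and 3.85 on the vehicle arrays and 3.93, 3.88 and 4.08 on the DB2313 arrays (log2). Vehicle replicate 3 lay below all DB2313 arrays, while the other vehicle arrays lay above them. The log2 fold change was -0.39 (SE 0.195, 95% confidence interval -0.84 to 0.07, limma adjusted p = 0.479). Without vehicle replicate 3 it was -0.64 and passed (limma adjusted p = 0.0326). That was the only member called in that setting, and it did not pass when any other array was left out.

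Il1rap, the accessory chain shared by several receptors of the family, was the third gene whose groups did not overlap. Its signals were 7.67, 7.70 and 7.61 with vehicle and 7.74, 7.73 and 7.83 with DB2313 (log2), so the groups were 0.03 apart. The log2 fold change was 0.11 (SE 0.062, 95% confidence interval -0.04 to 0.25, limma adjusted p = 0.543). Groups that do not overlap were found for 3 of the 9 members and for 19.3% of all genes. These 3 members lay at or above the median signal, where the share over all such genes was 28.2%. The other rows annotated to Il1rap were far dimmer, with vehicle means of 3.24 and 2.99, and had log2 fold changes of 0.15 and -0.04.

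The ligand genes gave low signals. Il1a (vehicle mean 3.25), Il1b (3.75) and Il18 (2.86) lay below the lower quartile of all genes, 3.89, and Il33 (4.34) lay between that and the median. In bulk RNA, fewer cells expressing a gene and less RNA per cell cannot be told apart, and background was not measured here. Differences in such dim genes can be understated.

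Il1b, which encodes interleukin 1 beta, had signals of 3.76, 3.77 and 3.72 with vehicle and 3.29, 4.04 and 3.58 with DB2313 (log2). The vehicle arrays lay within 0.05 of each other and the DB2313 arrays spread over 0.75 on both sides of them. The log2 fold change was -0.11, with a 95% confidence interval from -0.50 to 0.28 (limma adjusted p = 0.852). It turned to 0.064 without DB2313 replicate 1.

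Il1a, which encodes interleukin 1 alpha, had signals of 3.04, 3.22 and 3.50 with vehicle and 3.18, 3.28 and 3.16 with DB2313 (log2). The DB2313 values all lay inside the vehicle range. The log2 fold change was -0.04 (95% confidence interval -0.31 to 0.22, limma adjusted p = 0.923).

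Il33, which encodes an alarmin held in the nucleus, had signals of 4.15, 4.52 and 4.34 with vehicle and 4.20, 4.23 and 4.08 with DB2313 (log2). The groups overlapped, and the log2 fold change was -0.17 (95% confidence interval -0.40 to 0.06, limma adjusted p = 0.553). Il18, an inducer of interferon gamma, had signals of 2.79, 2.84 and 2.95 with vehicle and 2.80, 2.72 and 2.75 with DB2313 (log2). Its groups overlapped at the nearest pair of arrays, with a log2 fold change of -0.10 (95% confidence interval -0.26 to 0.06, limma adjusted p = 0.609).

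Il18bp, which encodes a secreted protein that binds and neutralises interleukin 18, had signals of 6.51, 6.77 and 6.27 with vehicle and 6.57, 6.50 and 6.55 with DB2313 (log2). The DB2313 values lay within the vehicle range. Their difference was a log2 fold change of 0.02 (95% confidence interval -0.25 to 0.30, limma adjusted p = 0.962). The fall of Il1rn was thus not accompanied by a called change in the other soluble inhibitor gene, whose interval allows a fold of up to 1.23 upward and 1.19 downward.

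**Figure D4:**
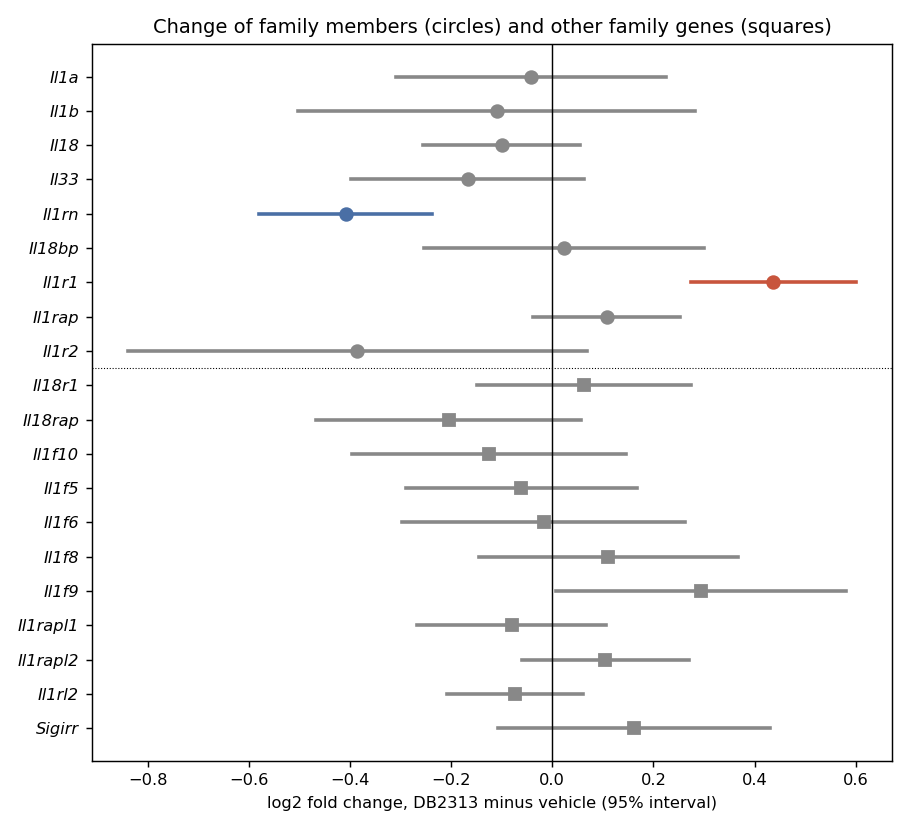
Log2 fold change (DB2313 minus vehicle) with its 95% confidence interval for the 9 measured members (circles, above the dotted line) and 11 other genes of the family (squares); blue fell, red rose and grey did not pass an adjusted p of 0.05. The Il1rn interval runs from -0.58 to -0.24 and that of Il1r1 from 0.27 to 0.60, while those of the other members include 0.

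The other family genes listed were the genes of the interleukin 36 ligands and antagonist (Il1f5, Il1f6, Il1f8 and Il1f9), Il1f10, Il18r1, Il18rap, Il1rl2, Sigirr, Il1rapl1 and Il1rapl2. All 11 were measured and none passed in limma. An unadjusted p under 0.05 was found for 1 (9.09%), against 12.7% of all genes. Il1f9, which encodes interleukin 36 gamma, had a log2 fold change of 0.29 (limma adjusted p = 0.379) at a dim vehicle mean of 3.22. Il18rap, the accessory chain of the interleukin 18 receptor, had -0.20 (limma adjusted p = 0.519). Their median was -0.02.

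By RefSeq order, Il1r2, Il1r1, Il1rl2, Il1rl1, Il18r1 and Il18rap stand next to each other on chromosome 1 with 0 other protein-coding genes between them. Il1r1 rose, and its neighbours on either side, Il1r2 and Il1rl2, had log2 fold changes of -0.39 and -0.07 and did not pass. Farther along this cluster Il18r1 had 0.06. On chromosome 2, Il1rn follows directly after Il1f10, the last of 5 adjoining family genes, which had -0.13 and did not pass. Il1a and Il1b stand next to each other on the same chromosome, with 1093 protein-coding genes between them and Il1rn.

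Downstream of the receptor, 1 of 32 measured signalling genes passed, against 3.36% of genes at or above the median signal, where all 32 lay, and it rose. This was Irak3, which encodes IRAK-M, an inhibitory member of the IRAK kinases. Its signals were 9.44, 9.46 and 9.38 with vehicle and 9.84, 9.92 and 9.91 with DB2313 (log2). The groups were clear of each other, with a log2 fold change of 0.46 (SE 0.060, limma adjusted p = 0.0113). Leaving out 1 array gave 0.44 to 0.49, and the call was kept in 2 of these 6 settings (limma adjusted p up to 0.0625). The count of signalling genes called was 0 without vehicle replicate 1, vehicle replicate 3, DB2313 replicate 2 or DB2313 replicate 3, and 5 with a trended and robust prior.

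The other signalling genes did not pass. The nearest to the threshold, chosen here after their values were seen, were Map2k6, a MAP kinase kinase (-0.35, limma adjusted p = 0.0519), and Irak2, a kinase that sustains the NF-kB response (-0.36, limma adjusted p = 0.0604). The adaptor Myd88 had 0.01 and the ubiquitin ligase gene Traf6 0.06, also chosen after their values were seen. The median of the list was -0.02, with 15 genes above and 17 below 0. An unadjusted p under 0.05 was found for 10 of the 32, or 31.2%, against 12.7% of all genes. Among genes at or above the median signal the share was 17.6%. The groups did not overlap for 14 of the 32, or 43.8%, against 28.2% of genes at or above the median signal.

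Among 19 measured genes of interleukin 1 processing and release, 1 passed, Nlrp3, the inflammasome sensor that leads to caspase-1 activation, and it fell. That is 5.26% of the list, against 1.81% of all genes and 3.36% of genes at or above the median signal, where 16 of the 19 lay. Nlrp3 cleared the median signal (5.17) through its vehicle arrays alone, with a DB2313 mean of 4.52, so its place among those genes adds no support. The Nlrp3 signals were 6.02, 5.81 and 5.97 with vehicle and 4.64, 4.16 and 4.77 with DB2313 (log2). The groups lay well apart, with a log2 fold change of -1.41 (SE 0.151, limma adjusted p = 0.00544), or -0.76 with the offset of 32. It passed in all 6 settings with 1 array left out. Casp1, encoding the protease that matures interleukin 1 beta and 18, had -0.19, and the adaptor gene Pycard had -0.03. Gsdmd, encoding the pore through which they leave the cell, had 0.01. These 3 did not pass (limma adjusted p = 0.330, 0.920 and 0.983) and were chosen after their values were seen. Next to Nlrp3 in p were Nlrc4 (-0.28, limma adjusted p = 0.143) and Casp4 (0.30, limma adjusted p = 0.199), and neither passed. An unadjusted p under 0.05 was found for 4 of the 19 (21.1%), against 12.7% of all genes and 17.6% at or above the median signal. The groups did not overlap for 6 of the 19 (31.6%), against 19.3% and 28.2%. The median of this list was -0.04, with 15 of 19 (78.9%) below 0, against 50.9% of all genes.

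None of 30 genes commonly induced by interleukin 1 passed in limma, and 4 (13.3%) had an unadjusted p under 0.05, a share near the 12.7% of all genes. The smallest p were those of Lcn2, an iron-siderophore binding protein of neutrophil granules (-0.48, limma adjusted p = 0.0550), and Ccl3, a chemokine (-0.30, limma adjusted p = 0.112). Both passed when genes under the median signal were removed before the test (limma adjusted p = 0.0165 and 0.0304). They also passed with the offset of 32 (0.0263 and 0.0303) and with the trended and robust prior (0.00247 and 0.00809). Those settings called 799, 830 and 920 genes in all, against 401 in the main test. Lcn2 alone passed with genes under the lower quartile removed (limma adjusted p = 0.0358) and with median centring (0.0380). Of the 16 alternatives, Lcn2 thus passed in 5 and Ccl3 in 3. Neither gene passed with any array left out (limma adjusted p from 0.0798 to 0.169 for Lcn2 and from 0.197 to 0.274 for Ccl3). Nor did they with the replicate block (limma adjusted p = 0.130 and 0.176). The median of the list was -0.03.

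**Figure D5:**
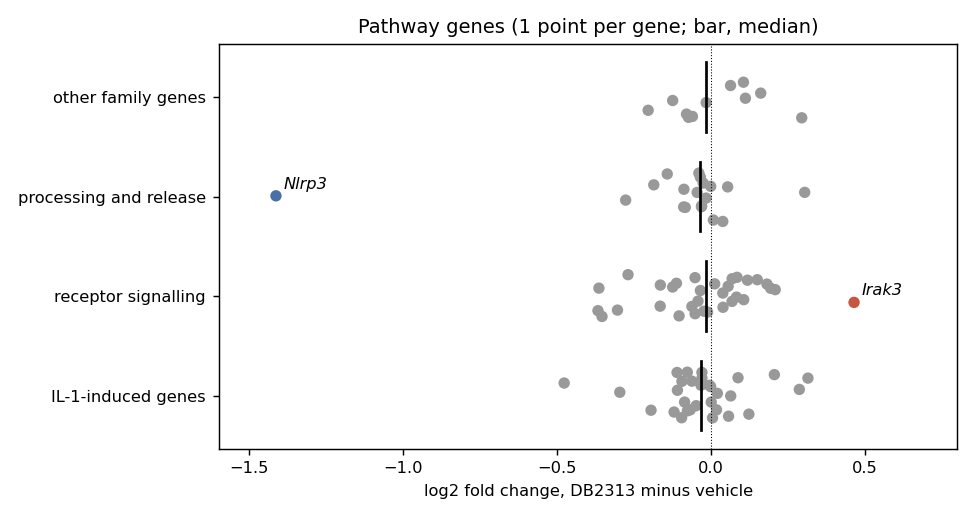
Log2 fold change (DB2313 minus vehicle, horizontal axis) of each measured gene in the lists of other family genes, processing and release, receptor signalling and interleukin 1-induced genes, with a black bar at each median; vertical scatter within a list carries no value. Only Nlrp3 (-1.41, blue) and Irak3 (0.46, red) passed an adjusted p of 0.05.

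The genes of other cell types that express Il1r1 or Il1rn were read beside these results. Over all genes, 1.81% passed in limma and 12.7% had an unadjusted p under 0.05. At or above the median signal these shares were 3.36% and 17.6%. Il1r1 is also a gene of endothelial and stromal cells. Of 7 endothelial markers, 1 rose, Cdh5 (log2 fold change 0.86, limma adjusted p = 0.00222). The other 6 did not pass, and 4 of the 7 had log2 fold changes below 0, among them Tie1 (-0.27, limma adjusted p = 0.299). The median of the list was -0.01, and 5 of the 7 lay below the median signal. The summed linear signal of the 7 was 596 to 649 with vehicle and 721 to 780 with DB2313. Without Cdh5 it was 492 to 542 and 540 to 571. Most of this remainder came from Pecam1 (vehicle mean 8.72), which did not pass (log2 fold change 0.11, limma adjusted p = 0.565). None of 9 stromal markers passed in limma (2 at an unadjusted p under 0.05), with the smallest p for Dcn (0.25) and Postn (-0.28) and sums of 218 to 238 and 212 to 232. Il1rn is also a gene of neutrophils and macrophages. Of 10 neutrophil markers, S100a8 fell (-0.63, limma adjusted p = 0.0333), though without a call when any array was removed (limma adjusted p from 0.0512 to 0.127). The neutrophil sums were 2150 to 2368 with vehicle and 1443 to 1690 with DB2313, and without S100a8 and Lcn2 they were 186 to 193 and 188 to 192. Of the 10 markers, 5 had log2 fold changes above 0 and the median was -0.0074, while the defining marker Ly6g had 3.99 with vehicle, below the median signal. None of 11 monocyte and macrophage markers passed in limma (1 at an unadjusted p under 0.05), with Cd68 at -0.47 (limma adjusted p = 0.0554), Mertk at -0.16, and sums of 2914 to 3156 and 2721 to 2878. Most of these sums came from Ly6c2 (vehicle mean 11.33, log2 fold change -0.13, limma adjusted p = 0.485). The part of these markers in the changes of Il1r1 and Il1rn was not tested.

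Genes of like pattern were sought among those whose mean over all arrays was above the median signal. Predicted genes, unnamed clones and genes of olfactory receptors, vomeronasal receptors, microRNAs and small nucleolar RNAs were left out of this search. The genes in it that followed Il1rn most closely over the 6 arrays were Sowahc, Unc119 and Prag1, with Pearson's r of 0.996, 0.993 and 0.990. Their log2 fold changes were -0.48, -0.19 and -0.23, and Sowahc passed (limma adjusted p = 0.0322), but in only 1 of 6 settings with an array removed (limma adjusted p up to 0.132). It did not pass with the replicate block (limma adjusted p = 0.0829). For Il1r1 the closest were Serpinb9f, an intracellular protease inhibitor gene, Khk, encoding ketohexokinase, and Psma8, encoding a proteasome subunit, with r of 0.995, 0.994 and 0.992. Their log2 fold changes were 1.03, 0.28 and 0.21, and Serpinb9f passed (limma adjusted p = 0.00686). With a vehicle mean of 4.75, Serpinb9f cleared the median signal through the DB2313 arrays alone. An r above 0.95 was reached by 107 of 11089 genes for Il1rn and by 148 for Il1r1, counts that include the genes left out of the search. The arrays form 2 groups, so any gene with a clear group difference of the same sign has a high r.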

How the data were processed

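Biotin-labelled total RNA of 6 samples was hybridised to Affymetrix arrays, per the labels' protocols. The submitters' processing notes name Affymetrix Expression Console. How background was corrected, probes summarised and arrays normalized is not given in the sources used here. Values deposited by the authors are on the log2 scale, as judged from their range, and 0 columns of per-sample values were left unused. Of 41345 rows, 23521 had 1 gene symbol in the platform annotation, 1814 several and 16010 none; only the first were used, with the brightest row per gene. RefSeq (GRCm38.p6) held the gene identifier for 23328 of these rows, and 4 symbols in the lists were matched through its synonyms. Of the list genes, 1 processing, 4 signalling and 2 marker genes were not analysed here.

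DB2313 was compared with vehicle in limma 3.58.1 (R 4.3.3) with lmFit and eBayes, 2-sided, adjusted by Benjamini-Hochberg over all genes at 0.05. Simulated data for 22180 genes held 200 genes changed by 0.5, 1 or 2 (log2). The test recovered 52.2% of those changed by 0.5 and 95.2% of those changed by 1, and 5.27% of its calls were false. Other numbers of changed genes were not simulated. Named were all members, Spi1, up to 4 called genes per list or else the 2 with the smallest p, and the 3 genes most like Il1rn and Il1r1; other genes named were chosen after their values were seen. The members and lists were chosen with earlier results of these data known. Alternatives were 2 filters on dim genes, quantile normalization, median centring, an offset of 32, another prior, a replicate block, the mean of rows, all rows, each array left out and an unmoderated test.  The number of arrays limits the precision.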

Additional observations from a re-analysis of the deposited data

How the results depend on the processing

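The directions of Il1rn and Il1r1 held under all 16 alternatives, but most of these could not turn them. The filters, the other prior, the replicate block, all rows and the unmoderated test leave the log2 fold change as it is. Each of the genes has 1 row, so the mean of rows repeats its values. As their groups did not overlap, leaving out 1 array cannot reverse the sign. Both genes passed in 8 of the 16 alternatives, including both filters, quantile normalization, median centring, the offset of 32, the other prior, the mean of rows and all rows. Il1rn cleared the median filter (5.17) through its vehicle arrays, with a DB2313 mean of 5.05, so its call there adds no support. With the replicate block they had -0.41 (adjusted p = 0.116) and 0.44 (adjusted p = 0.0897) and 0 members were called; with the unmoderated test they had -0.41 (adjusted p = 0.139) and 0.44 (adjusted p = 0.106), again with 0 members called. Same-numbered arrays did not deviate together (r = 0.0226, 0.0781 and 0.00828 over genes), and not every array correlated best with its own number, so the number was taken as a name only. Leaving out each array gave -0.46 to -0.36 for Il1rn, 0.38 to 0.47 for Il1r1, and 0 to 1 members called. Il1rn minus Il1r1 was -0.57 with the offset of 32, which damps the dimmer gene more. The sign turned, with no call, for Il1a (-0.15 to 0.082, above 0 without vehicle replicate 3), Il18bp (-0.10 to 0.15, below 0 without vehicle replicate 3) and Il1b (-0.31 to 0.064, above 0 without DB2313 replicate 1). Over all genes 401 were called, against 799 when genes under the median signal were removed, where fewer genes are tested, 830 with the offset of 32, 920 with the trended and robust prior, 190 with the replicate block and 70 with the unmoderated test, and 136 to 187 with 1 array left out, where fewer samples enter. The cause of the other differences was not tested. Irak3 did not pass with the replicate block (adjusted p = 0.0591) or the unmoderated test (0.0517), and Nlrp3 did not with the unmoderated test (0.105).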
